A study of Mus musculus with 6 samples.

Results

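The MICAL family was read in liver tumor cell lines through 5 gene symbols, *Mical1*, *Mical2*, *Mical3*, *Micall1* and *Micall2*, which occupy 6 of the 20856 rows with values in the deposited expression table because *Mical3* is listed under a pair of gene identifiers. All 6 rows were among the 11617 genes that could be tested. The family was chosen by the RPKM of *Mical1*, which was lower in one genotype, so its values are a description without a test, while the other members entered by name. The RNA came from 6 cultured lines, each established from a liver tumor raised in an adult female C57BL/6 mouse with no other treatment by hydrodynamic tail vein injection of a *Myc* transposon with a px330 plasmid carrying Cas9 and a guide RNA. In 3 lines the guide targeted *Trp53* (labelled Myc;sgp53/Cas9, here the *Trp53*-targeted lines, sgTrp53 in the plots) and in 3 it targeted *Kmt2c*, which encodes the histone methyltransferase MLL3 (labelled Myc;sgMll3/Cas9, here the *Kmt2c*-targeted lines, sgKmt2c in the plots). Every line carries the *Myc* transgene and an edited tumor suppressor, so there is no line with both genes intact, and a difference can belong to either edit. The study describes the *Kmt2c* edits as heterozygous or homozygous indels and the 3 lines of each genotype as independent, although *Kmt2c*-targeted replicates 2 and 3 carry the line names 2A and 2T1.

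MICAL proteins are flavin monooxygenases that oxidize methionine residues of actin, which makes filaments fall apart, and methionine sulfoxide reductases of the MsrB class reverse the reaction. MICAL1 was first known as a partner of plexin A receptors in semaphorin signaling, MICAL2 acts in the nucleus on the actin pool that controls the MRTF and SRF transcription factors, and MICAL3 works with Rab GTPases in vesicle docking and cell division. The MICAL-like proteins encoded by *Micall1* and *Micall2* lack the monooxygenase domain but keep the C-terminal region that binds Rab GTPases, through which they serve in recycling of membrane and in assembly of cell junctions.

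Values are RPKM, read counts divided by library size and by a single deposited transcript length per gene. Levels of different genes compare only as far as that length fits the transcripts counted. It was short for some genes, such as 427 bases for *Plxna3*, which spans 15624. The libraries held 3680068 to 6878625 reads on the listed genes, and each *Kmt2c*-targeted library was shallower than every *Trp53*-targeted library. The lines differed widely in lineage markers. Summed RPKM of 6 hepatocyte markers ran from 16.7 to 67.1 in the *Trp53*-targeted lines and from 2.28 to 5610 in the *Kmt2c*-targeted lines, where the highest value was that of replicate 1. In that line *Apob* and *Hnf4a* stood at 4385 and 1186 RPKM, on deposited lengths of 1118 and 431 bases. *Alb* itself, the defining secreted protein of hepatocytes, lay between 0.644 and 4.36 RPKM. *Trp53* transcript was low in each line whose guide targeted it (17.2 to 19.4 RPKM in the *Trp53*-targeted lines, 92.2 to 124 in the *Kmt2c*-targeted lines), whereas *Kmt2c* transcript overlapped between the genotypes (18.4 to 24.2 and 9.51 to 25.0 RPKM).

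The window around the annotated start site of *Mical2* is shown because this gene was the most abundant member in every line. It runs from 250 bases before to 50 bases after a RefSeq start site (GRCm38.p6, chr7:112225586-112225885), 5′ to 3′ on the plus strand, with CG dinucleotides in capitals.
Mical2: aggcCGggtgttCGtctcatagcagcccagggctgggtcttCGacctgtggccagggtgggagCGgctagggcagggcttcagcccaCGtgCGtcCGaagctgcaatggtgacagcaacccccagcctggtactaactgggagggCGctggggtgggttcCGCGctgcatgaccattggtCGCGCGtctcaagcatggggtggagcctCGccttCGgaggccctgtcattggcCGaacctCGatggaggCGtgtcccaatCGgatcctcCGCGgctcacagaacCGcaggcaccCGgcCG
The *Mical2* window held 24 CG dinucleotides (percentile 80.0 of the 32851 mouse promoter windows in the table), where the median window held 7. The windows of *Micall1* and *Micall2* held 38 and 19. Those of *Mical3*, at start sites 121081627 and 121131022, held 9 and 15. Neither *Mical3* window lies at the 5′ end of the RefSeq gene, 121173757. The E-box CACGTG, the letters that MYC and its partner MAX bind, read the same on both strands and contain a CG. They occurred in 7.15% of all windows, in the *Mical2* window and in none of those of *Mical3*, *Micall1* and *Micall2*. The RNA data say nothing about how these windows are used.

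*Mical1* was present in every *Trp53*-targeted line and nearly absent from every *Kmt2c*-targeted line. The gene (ENSMUSG00000019823, chromosome 10 of GRCm38 from 41476314 to 41487032) stood at 4.69, 4.11 and 5.29 RPKM in *Trp53*-targeted replicates 1, 2 and 3. In the *Kmt2c*-targeted lines it stood at 0, 0 and 0.131 RPKM. The 3 *Trp53*-targeted lines were close to each other, the highest 1.29-fold above the lowest, and the groups did not overlap. The reads behind these values were 102, 78 and 130 against 0, 0 and 2. At the mean level of the *Trp53*-targeted lines, the *Kmt2c*-targeted libraries would have held 78.9, 61.8 and 71.6 reads where 0, 0 and 2 were found. A count of 0 allows up to 3 reads, or 0.179 and 0.228 RPKM in *Kmt2c*-targeted replicates 1 and 2, where only counting error is covered. Against 3 reads per library, more than any *Kmt2c*-targeted line held, the mean of the *Trp53*-targeted lines was 23.3-fold higher. That ratio leaves out the spread between lines. The fitted log2 fold change of *Mical1* on the log2(RPKM + 1) scale was -2.45. *Mical1* passed the filter on low values only through the *Trp53*-targeted lines. In bulk RNA, fewer cells that carry the transcript and less transcript per cell cannot be told apart.

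**Figure D1:**
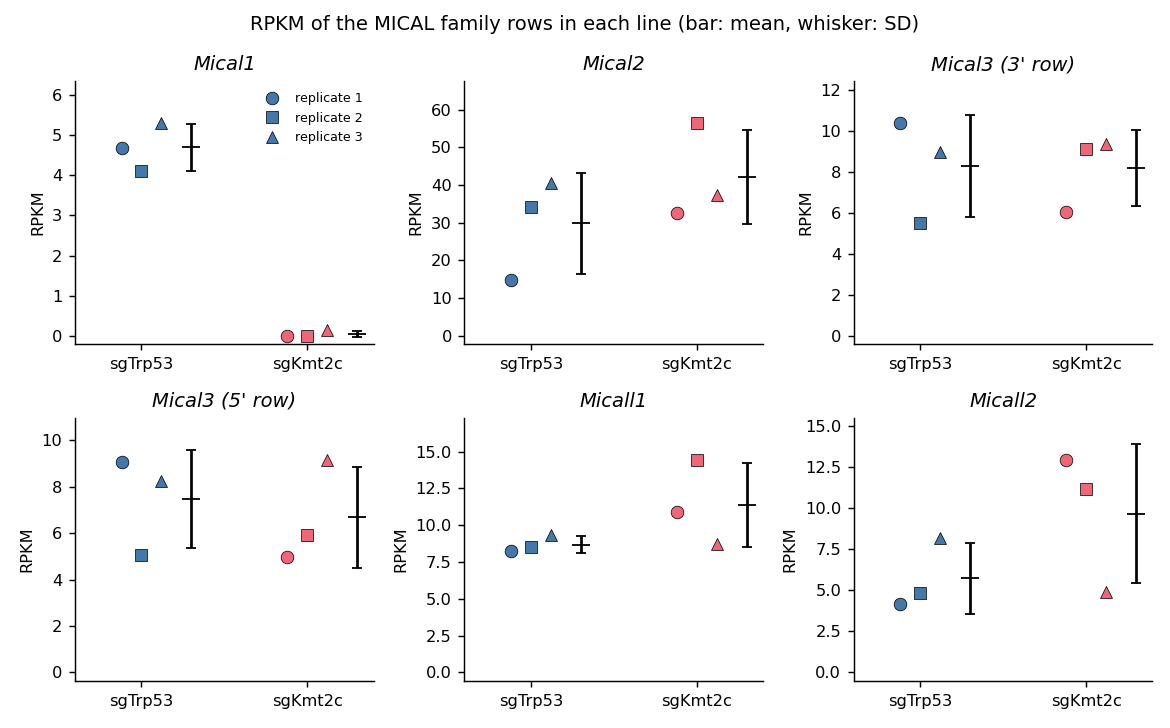
RPKM (vertical axes, starting at about 0 and scaled per panel) of the 6 MICAL family rows in the 3 sgTrp53 lines (blue) and the 3 sgKmt2c lines (red), with the marker shape giving the replicate and the bar and whisker giving the mean ± SD. Mical1 sits between 4.11 and 5.29 in the sgTrp53 lines and between 0 and 0.131 in the sgKmt2c lines, while the points of the other rows overlap between genotypes.

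Genes on either side of *Mical1*, namely *Zbtb24*, *Smpd2*, *Cd164* and *Fig4*, were transcribed in all 6 lines. *Zbtb24*, a zinc finger gene that ends 10743 bases before *Mical1*, stood at 3.65, 5.05 and 3.39 RPKM in the *Trp53*-targeted lines and at 6.60, 6.14 and 5.05 RPKM in the *Kmt2c*-targeted lines (limma adjusted p = 0.639). *Smpd2*, which encodes a neutral sphingomyelinase, shares 1391 bases with the end of the *Mical1* span and is therefore uncertain where reads fall on both genes, since use of strand in counting is not stated. It had 128, 68 and 142 reads in the *Trp53*-targeted lines and 97, 67 and 104 in the *Kmt2c*-targeted lines, a log2 fold change of 0.19 (95% confidence interval, CI, -0.46 to 0.84, limma adjusted p = 0.829). On the far side *Cd164*, which encodes a sialomucin, stood at 72.3 to 85.1 and 87.5 to 94.5 RPKM, higher without overlap as were 5.72% of all genes (limma adjusted p = 0.727). *Fig4*, a phosphoinositide phosphatase gene, overlapped between genotypes at 6.39 to 15.6 and 11.6 to 33.3 RPKM (limma adjusted p = 0.710). *Ak9*, *Ppil6* and *Ccdc162*, the remaining neighbours, were under 1 RPKM in every line and too low to be tested. All 4 neighbours tested had log2 fold changes above 0, from 0.19 to 0.67, and none had an adjusted p-value under 0.05.

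**Figure D2:**
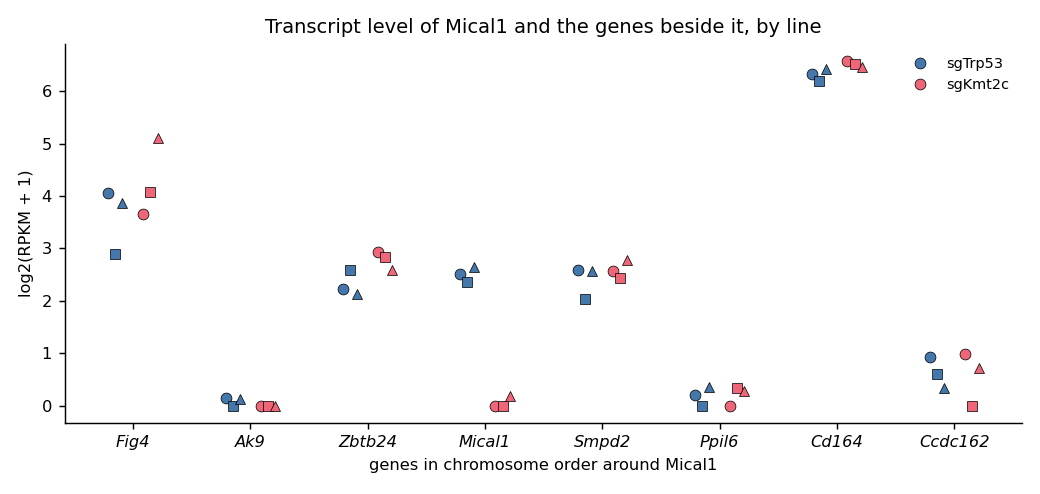
Log2(RPKM + 1) in each line (vertical axis) of Mical1 and its neighbours in chromosome order (horizontal axis, not to scale), with sgTrp53 lines in blue, sgKmt2c lines in red and marker shape giving the replicate. Smpd2, which shares 1391 bases with Mical1, had 67 to 104 reads in the sgKmt2c lines, where Mical1 had 0 to 2.

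*Mical2*, the nuclear actin oxidase, was the most abundant member in all 6 lines. It lies on chromosome 7 from 112225856 to 112355194 (ENSMUSG00000038244) and stood at 14.7, 34.2 and 40.6 RPKM in the *Trp53*-targeted lines, from 597, 1212 and 1864 reads. The *Kmt2c*-targeted lines held 32.7, 56.3 and 37.3 RPKM (1027, 1385 and 1063 reads). Replicate 1 was the lowest line of each genotype, the *Trp53*-targeted lines spread over 2.76-fold, and the groups overlapped. The log2 fold change was 0.56 (standard error, SE, 0.414, 95% CI -0.43 to 1.55, limma adjusted p = 0.717), an interval that does not exclude an increase of over 2-fold. Without *Trp53*-targeted replicate 1 the value fell to 0.13.

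*Mical3* has a pair of rows on chromosome 6, from 120931707 to 121003153 (ENSMUSG00000051586) and from 121007241 to 121081609 (ENSMUSG00000003178), with a gap of 4087 bases. The RefSeq annotation of the same build places a single *Mical3* gene from 120931546 to 121173757 on the minus strand, which spans both rows, so they are called here the 3′ and the 5′ row of that gene. The 3′ row stood at 10.4, 5.52 and 8.99 RPKM in the *Trp53*-targeted lines and at 6.05, 9.15 and 9.36 RPKM in the *Kmt2c*-targeted lines. The 5′ row stood at 9.07, 5.07 and 8.23 RPKM against 4.99, 5.91 and 9.14 RPKM. The rows ran side by side, with the 5′ row at 0.646 to 0.976 of the 3′ row in each line, the lowest ratio being that of *Kmt2c*-targeted replicate 2. Neither differed between genotypes beyond the spread of lines. The log2 fold change of the 3′ row was 0.00015 (95% CI -0.73 to 0.73, limma adjusted p = 1.00) and that of the 5′ row was -0.14 (-0.91 to 0.62, limma adjusted p = 0.898). On this scale both intervals exclude a change of 2-fold in either direction. Combined into a single gene, which was decided after the data were seen, *Mical3* had 582, 274 and 577 reads in the *Trp53*-targeted lines and 258, 288 and 380 in the *Kmt2c*-targeted lines (log2 fold change -0.036, limma adjusted p = 0.974).

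*Micall1*, a Rab and Arf6 effector of the recycling endosome, was the steadiest member among the *Trp53*-targeted lines. It lies on chromosome 15 from 79108972 to 79136897 (ENSMUSG00000033039) and stood at 8.22, 8.50 and 9.31 RPKM in those lines. In the *Kmt2c*-targeted lines it stood at 10.9, 14.4 and 8.73 RPKM, so replicates 1 and 2 lay above every *Trp53*-targeted line and replicate 3 among them. The log2 fold change was 0.33 (SE 0.246, 95% CI -0.26 to 0.92, limma adjusted p = 0.719). The span of *1700088E04Rik* overlaps that of *Micall1*, but it had at most 3 reads in any line against 250 to 430 on *Micall1*.

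*Micall2*, a Rab13 effector at cell junctions also known as JRAB, lies on chromosome 5 from 139706696 to 139736336 (ENSMUSG00000036718). It stood at 4.15, 4.82 and 8.18 RPKM in the *Trp53*-targeted lines and at 12.9, 11.2 and 4.89 RPKM in the *Kmt2c*-targeted lines. As with *Micall1*, replicates 1 and 2 of the *Kmt2c*-targeted lines were above every *Trp53*-targeted line and replicate 3 was not. The log2 fold change of 0.62 (SE 0.411, 95% CI -0.36 to 1.60) did not pass the test (limma adjusted p = 0.703) and rested on 66 to 192 reads per line. Without *Kmt2c*-targeted replicate 3 it was 1.00, still short of the threshold (limma adjusted p = 0.338).

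Of the 5 rows other than *Mical1*, none had an adjusted p-value under 0.05, against 0.129% of the 11617 genes tested by limma (0.0775% lower and 0.0516% higher in the *Kmt2c*-targeted lines). Nor did any reach an unadjusted p-value under 0.05, against 8.58% of all genes (5.34% lower and 3.25% higher), and by limma voom on the recovered reads none passed an adjusted p-value under 0.05. Values of the genotypes overlapped in all 5, where they did not in 16.2% of all genes (10.4% lower and 5.72% higher). With so few rows these shares set no limit on the family. A p-value that misses the threshold does not show equal levels, and the intervals of *Mical2* and *Micall2* are the widest.

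**Figure D3:**
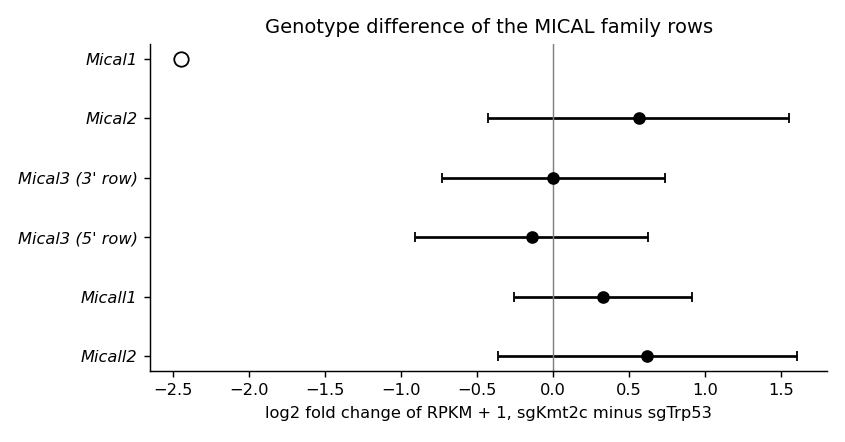
Log2 fold change of RPKM + 1 in the sgKmt2c lines relative to the sgTrp53 lines (horizontal axis) for each MICAL family row, with the 95% CI from limma as whiskers. The open circle at -2.45 is Mical1, which chose the family and is shown without an interval, and the 5 filled circles lie between -0.14 and 0.62 with intervals that include 0.

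Per unit of deposited transcript length, *Mical2* led the family in every line and *Mical1* came last in 5 of 6. *Mical2* was 1.47-fold to 6.90-fold above *Mical3* (both rows combined) and 1.79-fold to 4.36-fold above *Micall1*. The order of the middle members was not stable. *Micall1* was above *Micall2* in 5 of 6 lines and above *Mical3* in 4 of 6, and *Mical3* was above *Micall2* in 4 of 6, so these neighbours in the order did not differ beyond the spread of lines. In *Trp53*-targeted replicate 1 *Mical1* was 1.13-fold above *Micall2*. Among the genes tested, the mean of *Mical2* stood above 71.1% of genes in the *Trp53*-targeted lines and 79.5% in the *Kmt2c*-targeted lines, while *Mical1* stood above 21.5% and 0.0516%.

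Summed over the family, transcript level overlapped. It was 41.7, 57.0 and 72.1 RPKM in the *Trp53*-targeted lines and 62.2, 90.1 and 60.3 RPKM in the *Kmt2c*-targeted lines. *Mical1* made up 11.2%, 7.22% and 7.34% of that sum in the *Trp53*-targeted lines and 0%, 0% and 0.218% in the *Kmt2c*-targeted lines. *Mical2* made up 50.5% ± 13.4 (SD, n = 3) and 58.9% ± 5.59 (SD, n = 3). *Micall1* held nearly the same share in both, 15.8% ± 3.49 and 16.0% ± 1.54 (SD, n = 3 each). Shares within a sum are tied to each other, so a lower share of one member raises those of the others without any change in their level.

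**Figure D4:**
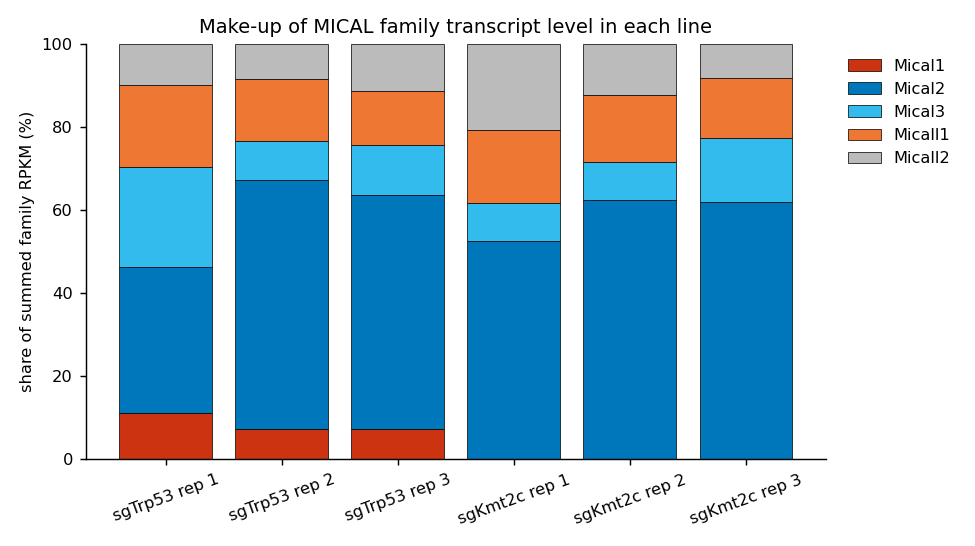
Share of the summed MICAL family RPKM (vertical axis, percent) held by each member in each of the 6 lines (bars), with the rows of Mical3 combined. Mical1, at the base of the bars, holds 7.22% to 11.2% in the sgTrp53 lines and at most 0.218% in the sgKmt2c lines, and Mical2 holds the largest share in every line.

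Among the lines the members did not vary as a block. Over the 6 lines, on the log2(RPKM + 1) scale, *Micall1* and *Micall2* had a Pearson correlation of 0.83 and the *Mical3* rows one of 0.86, while *Mical2* and the 3′ *Mical3* row had -0.18. These points share their libraries and depth and are given as a description. The genes whose pattern over the 6 lines was most like that of *Mical1* were *1810022K09Rik* (Pearson correlation 0.999), *Mbd1*, which encodes a methyl-CpG binding protein (0.997), and *Pdpn*, which encodes podoplanin (0.993). The first fell between 54.4 and 57.3 RPKM in the *Trp53*-targeted lines and between 26.8 and 28.5 in the *Kmt2c*-targeted lines, so a like pattern did not mean a like size of change. *Pdpn* stood at 11.0 to 22.9 and 0 to 0.129 RPKM. Of the 11617 genes tested, 70 had a correlation over 0.95 with *Mical1*, and the other rows had 6 to 47 such genes. With only 6 lines in a pair of groups, and the closest picked from all genes tested, such likeness is a description. For *Mical2* the closest were *Specc1l* (0.984), a gene of actin and microtubule organization, *Tgfb1* (0.977), which encodes a growth factor, and *Bcs1l* (0.976), a mitochondrial assembly gene. *Tgfb1* stood at 6.26, 25.1 and 25.2 RPKM in the *Trp53*-targeted lines and 20.9, 62.6 and 33.8 in the *Kmt2c*-targeted lines, lowest in replicate 1 of each genotype as *Mical2* was. The closest to *Micall1* was *Sdhaf2* (0.988), to *Micall2* *Tmem62* (0.987), to the 3′ *Mical3* row *Atp6v0e2* (0.993) and to the 5′ row *Grip1* (0.992).

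The other genes of the pathway were taken from 7 lists with 71 symbols, of which 70 were found under that name (not *Rab1a*) and 63 could be tested. None of the 63 had an adjusted p-value under 0.05, where 0.129% of all genes did. At an unadjusted p-value under 0.05, 6 of the 63 (9.52%) passed, against 8.58% of all genes tested, and limma voom gave 0 and 5. All 6 were lower in the *Kmt2c*-targeted lines. They include *Cnn1*, which passed the filter on low values only through the *Trp53*-targeted lines. The place of *Cnn1* in this count is therefore a description. The median log2 fold change of the 63 was -0.088, beside -0.086 over all genes.

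The methionine sulfoxide reductases, among them the enzymes that undo the reaction of MICAL proteins, showed no call. *Msrb1*, the reductase known to restore oxidized actin, stood at 25.4, 27.2 and 23.8 RPKM in the *Trp53*-targeted lines and 24.7, 31.5 and 27.2 RPKM in the *Kmt2c*-targeted lines (log2 fold change 0.12, limma adjusted p = 0.847). *Msrb3* varied more, from 7.04 to 22.5 and from 0.607 to 20.3 RPKM, and its lowest value was that of *Kmt2c*-targeted replicate 1. None of the 4 reductases tested had an unadjusted p-value under 0.05, where 8.58% of all genes did, and their median log2 fold change was -0.18.

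Among partners that bind MICAL or MICAL-like proteins, none of the small GTPases passed the test. All 8 Rab and Arf genes tested overlapped between the genotypes, with a median log2 fold change of 0.049. Of all genes 16.2% did not overlap, so 0 of 8 is near that share. *Rab8a* stood at 14.0 to 18.2 and 15.3 to 22.7 RPKM, *Rab35* at 30.6 to 33.2 and 20.3 to 32.9 RPKM, and *Rab13*, the partner of the *Micall2* product, at 3.13 to 11.2 and 1.73 to 7.35 RPKM. Of 15 binding partners tested only *Nedd9* had an unadjusted p-value under 0.05, where 8.58% of all genes did, so 1 of 15 is near that share. *Nedd9* encodes a scaffold of the Cas family that binds MICAL1. It stood at 20.1, 29.0 and 17.2 RPKM in the *Trp53*-targeted lines and 6.56, 13.5 and 15.0 RPKM in the *Kmt2c*-targeted lines. These values were lower without overlap, as were those of 10.4% of all genes. The log2 fold change of *Nedd9*, -0.91, did not pass across all genes (limma adjusted p = 0.569). *Stk38*, a kinase that MICAL1 restrains, lay between 24.3 and 27.2 RPKM in all 6 lines. *Vim*, whose vimentin product binds MICAL1, stood at 2754 to 4023 and 2116 to 4806 RPKM (log2 fold change 0.12, limma adjusted p = 0.928).

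Of 14 genes of class 3 semaphorins, their receptors and the mediator *Dpysl2*, 12 could be tested and all 12 overlapped between the genotypes, as did most genes (16.2% of all genes did not). The plexin A genes *Plxna1*, *Plxna2* and *Plxna3* were present in every line, whereas *Plxna4* did not exceed 0.218 RPKM. *Plxna3* stood at 63.4 to 114 and 46.6 to 188 RPKM, from 144 to 297 and 85 to 296 reads on its deposited 427 bases. The neuropilin receptor gene *Nrp2* ranged from 65.9 to 247 RPKM in the *Trp53*-targeted lines and from 6.78 to 158 RPKM in the *Kmt2c*-targeted lines. The bMERB relatives *Ehbp1* and *Ehbp1l1*, which share the Rab-binding region, gave log2 fold changes of -0.32 and 0.16 (limma adjusted p = 0.719 and 0.949). *Ehbp1* was lower without overlap (5.68 to 8.46 and 5.01 to 5.34 RPKM), as were 10.4% of all genes. *Micalcl*, the short relative beside *Mical2* on chromosome 7, had 3 to 14 reads per line and was not tested.

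The MRTF and SRF genes held 5 of the 6 unadjusted calls, all lower, out of 15 tested, where 5.34% of all genes were lower at that threshold. SRF drives genes of the contractile actin cytoskeleton. *Cnn1*, which encodes the smooth muscle protein calponin 1, stood at 9.90, 30.3 and 38.4 RPKM in the *Trp53*-targeted lines and at 0, 0.229 and 0.790 RPKM in the *Kmt2c*-targeted lines. Its log2 fold change was -4.19 (SE 0.529, limma adjusted p = 0.0611), the closest of the 63 to the threshold. *Cnn1* passed the filter on low values only through the *Trp53*-targeted lines, as *Mical1* did. The p-value of *Cnn1* and its place among the calls and separate ranges are therefore a description. *Cnn2* stood at 23.7, 62.4 and 121 against 2.16, 13.8 and 8.08 RPKM (log2 fold change -2.94, limma adjusted p = 0.388). *Myl9*, a myosin light chain gene, stood at 4.65, 12.5 and 28.4 against 0, 1.68 and 1.45 RPKM (log2 fold change -2.81, limma adjusted p = 0.375), and *Vcl* gave -0.66 (limma adjusted p = 0.569). *Tagln*, which encodes the actin-binding protein transgelin, stood at 9.20, 8.30 and 77.6 against 0.401, 2.91 and 5.75 RPKM, so a single *Trp53*-targeted line was far above the others. Its log2 fold change was -2.55 (limma adjusted p = 0.554) and -1.55 without *Trp53*-targeted replicate 3. With each line left out in turn, *Cnn2* ran from -3.55 to -2.32 and *Myl9* from -3.41 to -2.22. Ranges were separate, with lower values in the *Kmt2c*-targeted lines, for *Cnn1*, *Cnn2*, *Myl9*, *Tagln* and *Mkl2*, 5 of 15 where 10.4% of all genes were separate in that direction. *Srf* itself (21.4 to 26.8 and 13.0 to 23.1 RPKM), the cofactor gene *Mkl1* and the actin genes *Actb* and *Actg1* overlapped and had no unadjusted p-value under 0.05. The same held for *Acta2* (3.50 to 124 and 0 to 11.2 RPKM), *Actg2*, *Tpm1*, *Fhl1* and *Fhl2*. Over the 15 genes of the list the median log2 fold change was -0.66, beside -0.086 over all genes. The 4 fibroblast markers tested were also lower in fitted value, with a median log2 fold change of -1.67 and no unadjusted p-value under 0.05, and their part in the values of these genes was not tested.

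**Figure D5:**
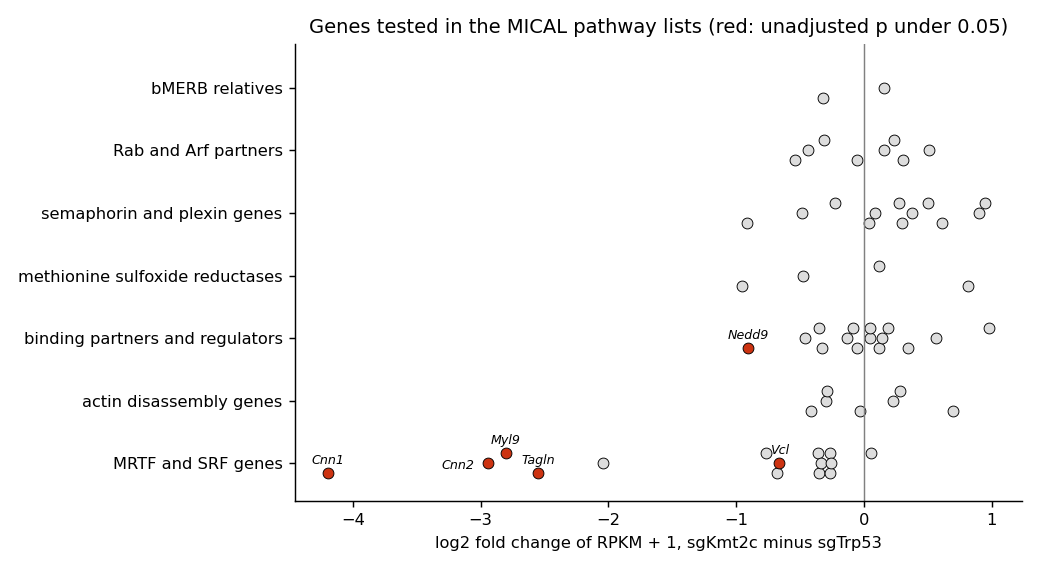
Log2 fold change of RPKM + 1 in the sgKmt2c lines relative to the sgTrp53 lines (horizontal axis) of the 63 genes tested in 7 lists around the MICAL family (rows), 1 point per gene, with red for an unadjusted p-value under 0.05. The 6 red points are Nedd9, Cnn1, Cnn2, Myl9, Tagln and Vcl, all below 0, and none passed an adjusted p-value under 0.05. Cnn1 passed the filter on low values only through the sgTrp53 lines.

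Actin disassembly genes, whose products act on the same filaments as MICAL proteins, showed no unadjusted call among 7 tested, where 8.58% of all genes did. Their median log2 fold change was -0.031. *Cfl1*, the main cofilin gene, stood at 837 to 1068 and 597 to 900 RPKM (limma adjusted p = 0.720). *Coro1b*, which encodes a coronin, stood at 167 to 188 and 175 to 405 RPKM, with *Kmt2c*-targeted replicates 1 and 2 above every *Trp53*-targeted line as for *Micall1* and *Micall2* (log2 fold change 0.70, limma adjusted p = 0.601).

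Markers of other cell types were read in the same libraries. The cultures had been passaged until visibly free of fibroblasts. Summed RPKM of 9 fibroblast markers ran from 15.2 to 986 in the *Trp53*-targeted lines and from 0.282 to 150 in the *Kmt2c*-targeted lines, so the sums overlapped. None of the 4 markers tested had an unadjusted p-value under 0.05, where 8.58% of all genes did. All 4 had negative log2 fold changes, from -3.08 for *Col1a2* to -0.73 for *Pdgfrb*. These 4, *Col1a1*, *Col1a2*, *Col3a1* and *Pdgfrb*, were each at their lowest in replicate 1 of each genotype. *Dcn*, which encodes the matrix protein decorin and was too low to be tested, stood at 7.39, 0.897 and 8.16 RPKM in the *Trp53*-targeted lines and at 0, 0 and 0.248 RPKM in the *Kmt2c*-targeted lines. Its 85, 9 and 106 against 0, 0 and 2 reads were lower without overlap, as were 10.4% of all genes tested. *Pdgfra*, *Thy1*, *Des* and *Lum*, also too low to be tested, overlapped between the genotypes, as did the 4 markers tested. Summed RPKM of 7 immune markers ran from 21.7 to 58.2 and from 5.51 to 15.2 without overlap, with *Cd3e* and *Cd79a* at 0 and *Ptprc* at 3 reads or fewer in every line. Of 3 tested in that list, the myeloid genes *Lyz2* and *Csf1r* were lower at an unadjusted p-value under 0.05, as were 5.34% of all genes. Neither passed across all genes (limma adjusted p = 0.427 and 0.440), and *Csf1r* passed the filter only through the *Trp53*-targeted lines. The third, the myeloid gene *Cd68*, overlapped at 2.60 to 7.60 and 1.71 to 5.35 RPKM (log2 fold change -0.17, limma adjusted p = 0.919). *Lyz2* stood at 29.0, 17.1 and 45.3 RPKM in the *Trp53*-targeted lines and at 0, 0.214 and 12.4 RPKM in the *Kmt2c*-targeted lines, where *Mical1* had 0, 0 and 2 reads. Summed endothelial markers did not exceed 0.284 RPKM in any line, and *Emcn* was at 0. Epithelial markers summed to 62.6 to 990 and 237 to 5811 RPKM. The part of these markers in the levels of *Mical1* and of the SRF genes was not tested.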

How the data were processed

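RNA-seq of 6 mouse liver tumor cell lines was used, 3 per genotype, grouped by sample title. The authors used Trimmomatic, STAR (on GRCm38) and HTSeq, and deposited the result as RPKM (named FPKM in the methods) in a table of 21065 rows, 209 of them without values. Another 6 sample columns of that table were not used, nor was the authors' table of their own DESeq2 1.8.2 comparison (mean counts, fold changes and p-values). Multiplied by transcript length, 100% of values above 0 were whole multiples of a unit per library (tolerance 0.01 of a read), which gave reads per gene. Totals were 5312182 to 6878625 reads in the *Trp53*-targeted libraries and 3680068 to 4704539 in the *Kmt2c*-targeted libraries. Floors on reads cover counting error only.

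Genotype was tested, without covariates, by limma 3.58.1 in R 4.3.3 (lmFit and trended eBayes) on log2 of RPKM + 1. Genes reaching an RPKM of 1 in 3 or more of 6 libraries entered (11617), and p-values were adjusted over all of them by the Benjamini-Hochberg method. Fold changes on this scale understate changes of low genes. The fit was tested on simulated data. An exact permutation test of 3 lines against 3 cannot go below p = 0.1, so none is printed. Every pair of replicates differed by more than counting noise (chi-square per gene 26.5 or more). P-values measure the spread between these lines. The members, lists and rules were chosen with earlier results of these data known. Named genes are the members, the lists, the neighbours and overlaps of the members and the 3 genes closest in pattern to each, and *Trp53* and *Kmt2c* as checks. Alternatives changed the pseudocount, filter, scaling, moderation, test and lines used. Promoter windows are from RefSeq (GRCm38.p6, which matched all 5 symbols), and that of *Mical1* is not reported here. Plots were drawn with matplotlib 3.10.9.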

Additional observations from a re-analysis of the deposited data

How the results depend on the processing

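The 5 rows other than *Mical1* stayed above an adjusted p-value of 0.05 under every alternative tried. *Mical2*, *Micall1* and *Micall2* kept a positive log2 fold change in all of them, from 0.13 to 0.84, from 0.16 to 0.49 and from 0.38 to 1.00. The value of the 3′ *Mical3* row is close to 0 and changed sign with TPM scaling (-0.025), with limma voom on recovered reads (-0.0098), with *Kmt2c*-targeted replicates 2 and 3 merged (-0.090) and with the rows combined (-0.036, chosen after seeing the data). With each line left out in turn it ran from -0.24 to 0.18, and that of the 5′ row from -0.36 to 0.019. *Mical1* stayed negative throughout. Its log2 fold change was -5.17 and -3.26 with pseudocounts of 0.1 and 0.5, -3.17 with TPM scaling, -2.21 with quantile normalization and -6.38 with limma voom.

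Among all genes, 15 had an adjusted p-value under 0.05 (limma), 6 with a pseudocount of 0.1, 5 without a filter, 6 with an RPKM of at least 1 in all 6 libraries (a filter *Mical1* cannot pass) and 4 with limma voom. The count was 0 with *Kmt2c*-targeted replicates 2 and 3 merged (1031 at an unadjusted p-value under 0.05) and 0 to 8 with each line left out (563 to 1477 unadjusted), the 8 being without *Kmt2c*-targeted replicate 1. The replicate block also gave 0 (1085 unadjusted). Same-numbered lines correlated in their deviations at 0.19, 0.40 and 0.032. Lines numbered 1 and 2 correlated best with their own number, and lines numbered 3 did not. Deviations from means of 3 lines cannot decide whether the numbers pair the lines. The pathway lists gave 0 genes at an adjusted p-value under 0.05 under every alternative and 6 at the unadjusted threshold, from 3 to 9 over the alternatives. The causes were not tested. Apart from *Mical1*, *Micall2* and the 5′ *Mical3* row rested on the fewest reads, with 66 and 63 in the lowest line.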
